A study of Mus musculus with 117 samples.

Results

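Transcripts of intracisternal A particle (IAP) retrotransposons were followed through 28 mouse RNA-seq libraries in which Ubc9 had or had not been depleted. The IAP rows were taken by name: every row of the deposited count table that was not a gene and whose name began with IAP. There were 16 such families among 799 repeat families, in a table of 27100 rows of which 26301 were genes. Of the 16, 6 were internal parts (IAPEz-int, IAPEy-int, IAPEY3-int, IAP-d-int, IAPLTR3-int and IAPLTR4_I), and 10 were long terminal repeats (LTRs). All 16 passed the filter on low counts in every comparison.

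IAP elements are endogenous retroviruses of the mouse. A full copy has an internal part, which holds the gag, pro and pol reading frames, between a pair of LTRs, and the LTR carries the promoter. Many copies also remain in the genome as single LTRs. In mouse ES cells, IAP copies are known to be silenced by H3K9 trimethylation, which Trim28 and Setdb1 bring about through KRAB zinc finger proteins, and by DNA methylation. Ubc9 is the E2 enzyme that attaches SUMO to proteins, and SUMO on Trim28 is known to help bring in Setdb1.

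The study compared Ubc9-depleted with control cells in 5 states. MEF were mouse embryonic fibroblasts of stage E13.5 at passage 1, with a control hairpin (shCtrl, 3 libraries) or a hairpin against Ubc9 (shUbc9, 2 libraries). D4 and D7 were such fibroblasts after 4 or 7 days of expressing the factors Oct4, Klf4, Sox2 and Myc, with 3 shCtrl and 3 shUbc9 libraries on each day. The iPS cells were derived from MEF, at a passage the labels do not state, with 2 shCtrl and 3 shUbc9 libraries. ES cells of passages 15 to 20 had a control small interfering RNA (siCtrl, 3 libraries) or one against Ubc9 (siUbc9, 3 libraries). The labels do not state how the hairpins and the reprogramming factors were delivered, or whether they were still expressed in the iPS cells. The labels do not say whether the replicates were separate cultures or animals, so p-values measure the spread between these libraries, which may be technical.

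Levels are counts per 1e+06 gene counts (CPM), with each library's gene total scaled by a TMM factor computed on the genes, so that a shift of all repeats would not be scaled away. Gene counts per library ran from 11.4 to 58.8, in units of 1e+06, and repeat families took 7.22% to 24.8% of all counts. The rarest IAP family had 5 to 440 counts in a library. The library labelled iPS shUbc9 replicate 2 stood apart: it had the fewest gene counts, the lowest share of repeat counts and correlations with the other 2 of its group of 0.894 and 0.898, against at least 0.975 for every other replicate pair.

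Ubc9 depletion in ES cells raised 13 of the 16 IAP families and lowered none. The background for that count was 19.5% of all rows called higher and 17.8% called lower, and among repeat families 11.4% higher and 3.11% lower. The whole set of 16 had log2 fold changes above 0, with a median of 1.31, beside -0.07 for all repeat families tested and -0.01 for all rows. All 6 internal parts rose, with a median of 1.67, and 7 of the 10 LTR families rose, with a median over the 10 of 0.78. With the replicate number as a block, which the check of the numbers allows for this comparison by a narrow margin, 14 families were called. In 1 fit of all libraries the calls of IAPLTR2b and IAPEY2_LTR were lost. In bulk RNA, more cells that express an element and more RNA per cell cannot be told apart.

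IAPEz-int, the interior of the IAP class with the most counts here, had 472, 535 and 517 CPM in the siCtrl libraries and 4331, 4505 and 4769 CPM in the siUbc9 libraries. Every depleted library lay far above every control. The difference was 9.12-fold (95% interval 7.82 to 10.6; log2 fold change 3.19, SE 0.10; adjusted p = 1.88e-07 by edgeR's quasi-likelihood test with Benjamini-Hochberg adjustment). Among 771 repeat families tested in ES cells it ranked 1 by log2 fold change. Leaving out each library in turn moved the value between 3.13 and 3.23.

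**Figure D1:**
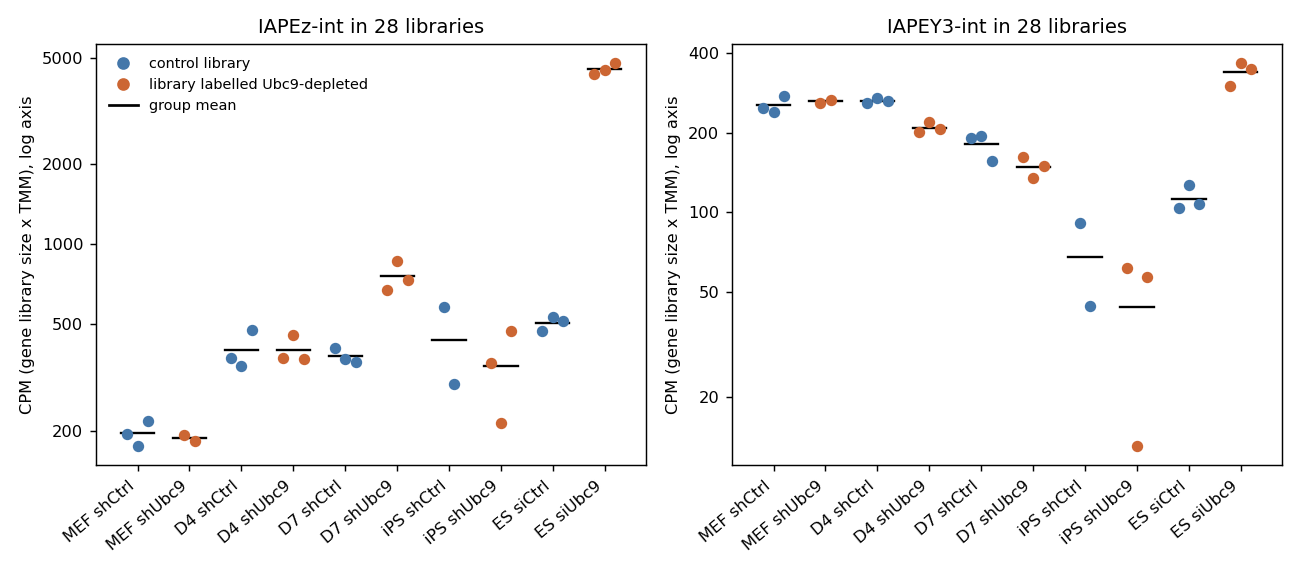
IAPEz-int (left) and IAPEY3-int (right) in each of 28 libraries, by group on the x axis, in CPM on log y axes; points are libraries and black bars are group means. The ES siUbc9 libraries, at 4331 to 4769 CPM, lie above all others for IAPEz-int, while IAPEY3-int is highest in the same libraries and lowest in iPS cells.

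IAPEy-int, another IAP interior, came next: it had 37.4, 49.4 and 40.9 CPM with siCtrl and 238, 260.1 and 248 CPM with siUbc9. The groups did not overlap, and the fold was 5.98 (log2 fold change 2.58, SE 0.10; adjusted p = 6.81e-07), ranking 2 among the repeat families. IAPEY3-int rose 3.07-fold (1.62, SE 0.10; adjusted p = 6.05e-06), from 104, 126 and 107 CPM to 300.1, 367 and 348 CPM. IAPLTR4_I rose 3.28-fold (1.71, SE 0.09; adjusted p = 2.25e-06), from 5.99, 5.27 and 5.50 CPM to 15.9, 19.4 and 18.1 CPM. Neither pair of groups overlapped, and both families were among the 10 repeat families with the largest log2 fold changes in ES cells.

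The remaining internal parts rose by similar factors. IAP-d-int had 83.1, 96.4 and 85.5 CPM with siCtrl and 196, 238 and 229 CPM with siUbc9, a rise of 2.56-fold (1.35, SE 0.09; adjusted p = 7.98e-06). IAPLTR3-int had 36.1, 53.3 and 42.4 CPM and then 93.5, 122 and 113 CPM, a rise of 2.55-fold (1.35, SE 0.15; adjusted p = 0.000163). In both, the lowest depleted library was above the highest control.

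Of the LTR families, IAPLTR1_Mm, an LTR that commonly flanks IAPEz interiors, rose most. Its siCtrl libraries had 26.9, 33.9 and 29.7 CPM and its siUbc9 libraries 92.9, 112 and 108 CPM, a 3.53-fold rise (1.82, SE 0.10; adjusted p = 3.6e-06) that ranked 6 among repeat families. IAPLTR2_Mm had 54.6, 75.4 and 61.4 CPM against 131, 163 and 155 CPM, a rise of 1.26 on the log2 scale (SE 0.13; adjusted p = 0.000101). The groups were separate for both. IAPLTR2a moved less, from 36.0, 43.4 and 39.6 CPM to 59.5, 69.2 and 64.7 CPM (1.67-fold; 0.74, SE 0.08; adjusted p = 0.000212). The other LTR families called were IAPLTR1a_Mm (1.37 on the log2 scale), IAPEY_LTR (1.06), IAPLTR2b (0.82) and IAPEY2_LTR (0.60). The calls of IAPLTR2b (0.78, adjusted p = 0.0704) and IAPEY2_LTR (0.56, adjusted p = 0.315) were lost in 1 fit of all libraries.

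The other 3 LTR families did not pass the test in ES cells, and their intervals bound what could be missed. IAPLTR4 had 30.2, 51.1 and 36.7 CPM with siCtrl and 31.6, 45.6 and 42.3 CPM with siUbc9, a log2 fold change of 0.07 (95% interval -0.38 to 0.51; adjusted p = 0.823). IAPLTR3 had 5.78, 7.74 and 6.63 CPM against 5.85, 7.98 and 7.74 CPM, with a log2 fold change of 0.16 (-0.17 to 0.49; adjusted p = 0.419). The groups overlapped in both, whereas the interiors of the same names, IAPLTR4_I and IAPLTR3-int, had separate groups. IAPEY3_LTR had a log2 fold change of 0.25 (0.02 to 0.49; adjusted p = 0.0834) and passed only with the replicate block (adjusted p = 0.011) or without ES siCtrl replicate 2 (adjusted p = 0.00405). Groups that did not overlap were seen in 13 of the 16 families, all higher with siUbc9, beside 21.9% of all rows separate in that direction.

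**Figure D2:**
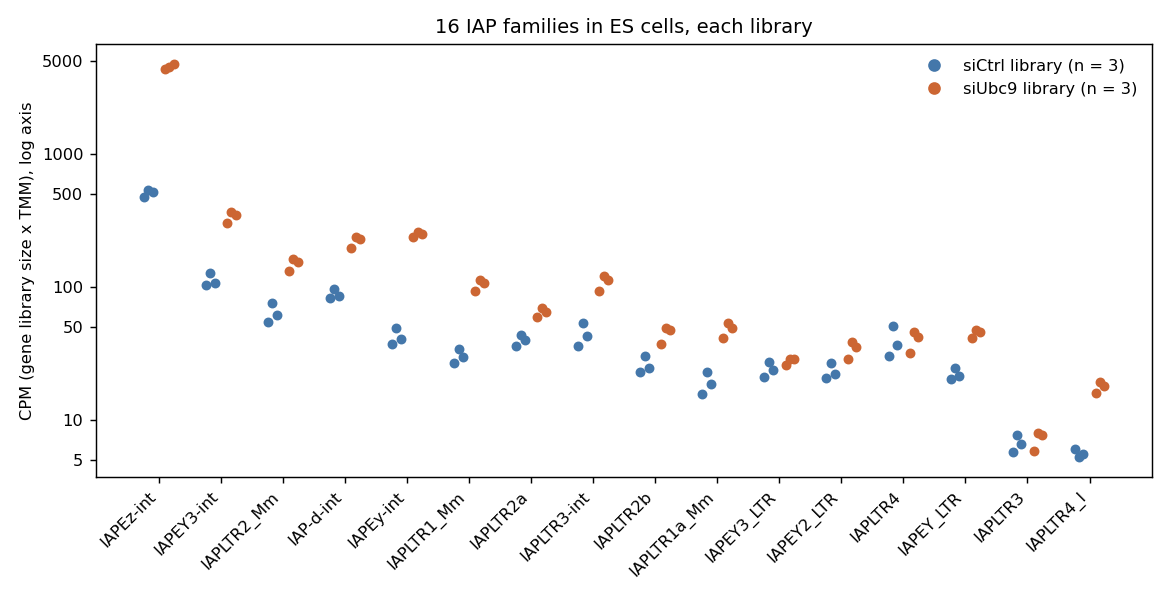
The 16 IAP families (x axis) in each ES library, in CPM on a log y axis, with siCtrl and siUbc9 libraries as separate points, 3 of each. The depleted points lie above the control points in 13 families and mix with them in IAPEY3_LTR, IAPLTR4 and IAPLTR3.

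The other families among the 10 largest rises in ES cells were LTR45C (2.39), MMERVK10C-int (2.32), MMERGLN-int (2.11), MERVL-int (1.74) and RLTR44-int (1.72), the remaining 5 being IAP families. All 5 listed ETn and MMERVK families, which belong to the same retrovirus class as IAP, were called higher, with a median of 1.02; the list does not hold MMETn-int, another ETn interior. MMERVK10C-int went from a mean of 578 to 2829 CPM (2.32 on the log2 scale). Of 7 MERVL and MT2 families, 2 were called, MERVL-int and MT2_Mm (1.10). Of 89 LINE-1 families tested, 8 were called higher and 2 lower, with a median of -0.10.

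Genes of the silencing machinery were counted in the same ES libraries, where 19.5% of all rows were called higher and 17.8% lower. Of 17 genes for H3K9 methylation, 2 rose and 4 fell: Atf7ip, a cofactor of Setdb1, rose 2.22-fold (1.15; adjusted p = 4e-05) and the methyltransferase gene Suv39h1 rose by 0.17 (adjusted p = 0.0321), while Pphln1, a HUSH complex subunit (-0.57; adjusted p = 5.22e-05), and the methyltransferase gene Ehmt2 (-0.45; adjusted p = 0.000107) fell. Trim28 (-0.17; adjusted p = 0.149) and Setdb1 (0.10; adjusted p = 0.15) did not pass. Of 10 DNA methylation genes none rose and 3 fell, among them Tet2, which oxidises methylcytosine (-0.68), and Uhrf1, which brings Dnmt1 to replicated DNA (-0.27). Of 7 histone deposition genes 3 fell, Chaf1b (-0.22) and Asf1b (-0.23) among them. Of 6 genes that restrict retroelement RNA or cDNA, Zc3hav1 rose (0.53) and 4 fell, led by the helicase gene Mov10 (-0.97; adjusted p = 3.78e-06) and the deaminase gene Apobec3 (-0.77; adjusted p = 2.11e-05). No gene of the 6 for SUMO conjugation was called higher.

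Markers of other cell states moved beside the IAP families in ES cells. The background for their counts was again 19.5% of all rows called higher and 17.8% lower. Those of the two-cell-like state, a rare state of ES cultures, summed to a mean of 45.2 CPM with siCtrl (42.1 to 47.7) and 401 CPM with siUbc9 (386 to 423), with 5 of 5 tested called higher. Zscan4c rose 9.12-fold (3.19) and Zscan4d 9.46-fold (3.24). Pluripotent markers summed to 3558 and 2911 CPM, with 1 of 10 called higher (Dppa3, 2.25) and 6 lower, Nanog (-0.98) among them. Germ cell markers summed to 140 and 204 CPM, with 1 of 5 called higher (Dazl, 1.60). Their part in the IAP rise was not tested. Fibroblast markers summed to 53.0 and 48.2 CPM (0 called higher and 2 lower of 9). Epithelial markers summed to 621 and 639 CPM (2 and 1 of 5). Both pairs of sums overlapped. Macrophage markers fell from 50.7 CPM (48.4 to 54.1) to 36.5 CPM (35.8 to 37.3), with 1 higher and 1 lower of 3. Endothelial markers rose from 75.7 CPM (73.9 to 77.4) to 98.0 CPM (95.8 to 99.1), with 2 higher and 0 lower of 4. The part of these markers in the IAP rise was not tested either.

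At D7, depletion raised 3 IAP families and lowered 2. Over all rows 25.1% were called higher and 25.4% lower, and over repeat families 2.09% higher and 14.7% lower. The median log2 fold change was -0.09 over the 16 families and -0.22 over all repeat families. IAPEz-int had 409, 371 and 363 CPM with shCtrl and 676, 861 and 736 CPM with shUbc9, with every depleted library above every control. Its fold was 1.93 (95% interval 1.64 to 2.27; log2 fold change 0.95, SE 0.10; adjusted p = 7.15e-05), and it ranked 2 of 767 repeat families, after MMETn-int (1.67).

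IAPLTR1_Mm rose by almost the same factor. Its values were 31.2, 26.6 and 26.8 CPM in the D7 controls and 53.0, 58.8 and 53.3 CPM in the depleted libraries, 1.90-fold (0.92, SE 0.09; adjusted p = 3.37e-05; rank 4). IAP-d-int had 39.0, 36.7 and 37.2 CPM against 51.7, 50.3 and 60.2 CPM, 1.39-fold (0.48, SE 0.09; adjusted p = 0.00222). In both families the groups did not overlap, and these 3 were the IAP families with separate, higher groups, beside 31% of all rows. The call of IAP-d-int was lost with repeat families alone in the fit (0.48, adjusted p = 0.0563) and in 1 fit of all libraries (0.52, adjusted p = 0.209).

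The falls at D7 were in IAPLTR3 and IAPEY3-int. IAPLTR3 had 5.53, 4.86 and 5.17 CPM with shCtrl and 2.79, 3.38 and 2.69 CPM with shUbc9, 1.81-fold lower (-0.85, SE 0.14; adjusted p = 0.000936) with no overlap, beside 25.5% of all rows separate and lower. IAPEY3-int had 190.3, 195 and 156 CPM against 161, 135 and 150.0 CPM, so the groups overlapped although it was called 1.25-fold lower (-0.32, SE 0.09; adjusted p = 0.0164). This call was lost without D7 shCtrl replicate 1, shUbc9 replicate 2 or shUbc9 replicate 3, with adjusted p of 0.0534 to 0.0683, with repeat families alone in the fit (adjusted p = 0.263) and in 1 fit of all libraries (adjusted p = 0.563). With gene library sizes alone, which shift the median of all rows from -0.02 to 0.19 and the share of calls that are higher from 49.7% to 71.6%, it stood at -0.10 (adjusted p = 0.446), and IAPLTR2_Mm (0.29) and IAPLTR2a (0.33) were then called higher.

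The interiors that rose in ES cells did not all move at D7. IAPEy-int had 15.3, 15.3 and 17.3 CPM with shCtrl and 12.2, 13.0 and 17.4 CPM with shUbc9 (-0.21, adjusted p = 0.271). IAPLTR3-int had 20.1, 19.7 and 20.2 CPM against 17.3, 16.7 and 20.5 CPM (-0.18, adjusted p = 0.191), and IAPLTR4_I had 2.62, 2.34 and 2.32 CPM against 2.55, 1.45 and 3.37 CPM (-0.02, adjusted p = 0.965). Each of these pairs of groups overlapped.

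Related elements and genes at D7 were as follows, where 25.1% of all rows were called higher and 25.4% lower. Among repeat families 2.09% were called higher and 14.7% lower. Of the 5 listed ETn and MMERVK families, 4 were called higher, with ETnERV-int at 0.80 and ETnERV3-int at 0.60, while MMERVK10C-int, which led that group in ES cells, had 0.00. MMETn-int, outside the list, rose by 1.67 (adjusted p = 7.29e-07). None of 7 MERVL and MT2 families rose and 1 fell, and of 89 LINE-1 families none rose and 4 fell. Of the H3K9 methylation genes 4 of 17 rose and 2 fell, with Suv39h2 at 0.85, Suv39h1 at 0.45, Morc2a at -0.40 and Resf1 at -0.32. Of 10 DNA methylation genes 6 rose, with the remodeller gene Hells at 0.78 and Uhrf1 at 0.63, and 2 fell, the methyltransferase gene Dnmt3a at -0.97 (adjusted p = 3.27e-05) and Tet3 at -0.78. Histone deposition had 2 of 7 higher (Asf1a 0.30, Chaf1b 0.33), and restriction genes had 4 of 6 lower (Mov10 -0.68, Samhd1 -0.46). SUMO conjugation had 4 of 6 higher, with Sumo3 at 0.52 and Uba2 at 0.51.

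Marker levels shifted strongly at D7, where 25.1% of all rows were called higher and 25.4% lower. Pluripotent markers summed to 6.18 to 24.6 CPM with shCtrl and 71.0 to 91.1 CPM with shUbc9, 9 of 10 called higher, and epithelial markers to means of 291 and 924 CPM (5 called higher and 1 lower of 6). Fibroblast markers summed to means of 43289 and 20556 CPM, with 9 of 10 called lower. Their part in the IAP values was not tested. Two-cell-like markers summed to at most 0.158 CPM in any MEF, D4 or D7 library and none was tested there, macrophage markers to 173 and 154 CPM (0 and 1 of 10), endothelial markers to 178 and 135 CPM (1 and 2 of 4), and germ cell markers to 3.53 and 2.35 CPM (0 and 2 of 3).

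At D4, no IAP family was called higher and 3 were called lower, beside 25.4% and 25.2% of all rows and 1.3% and 23.3% of repeat families. All 16 log2 fold changes were below 0, with a median of -0.26, close to that of all repeat families (-0.29). IAPEz-int had 374, 351 and 477 CPM with shCtrl and 376, 457 and 373 CPM with shUbc9, values that overlapped fully. Its log2 fold change was -0.01, and the 95% interval for the fold ran from 0.821 to 1.20.

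The families called at D4 were IAPEY3-int, IAPLTR3 and IAPLTR4. IAPEY3-int had 259, 271 and 264 CPM against 200.4, 219.6 and 206 CPM, 1.28-fold lower (-0.36, SE 0.07; adjusted p = 0.00168). IAPLTR3 had 5.35, 5.22 and 6.33 CPM against 3.69, 4.11 and 2.77 CPM, 1.60-fold lower (-0.68, SE 0.15; adjusted p = 0.00455). Both pairs of groups were separate, in a comparison where 27.3% of all rows were separate and lower. IAPLTR4 overlapped, with 11.5, 9.62 and 13.4 CPM against 7.97, 9.93 and 6.70 CPM (-0.49, SE 0.16; adjusted p = 0.0258). Its call was lost when D4 shCtrl replicate 1 or 3, or shUbc9 replicate 1 or 3, was left out (adjusted p 0.0701 to 0.114). With repeat families alone in the fit all 3 calls were lost at nearly the same log2 fold changes (IAPEY3-int -0.36, adjusted p = 0.189; IAPLTR3 -0.69, adjusted p = 0.0917; IAPLTR4 -0.50, adjusted p = 0.148). They were also lost in 1 fit of all libraries (adjusted p = 0.485, 0.0592 and 0.416 in that order). The count of lower families was 5 without D4 shCtrl replicate 2 and 8 without D4 shUbc9 replicate 2.

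Of the LTR families described in ES cells, IAPLTR1_Mm at D4 had 31.2, 29.4 and 35.1 CPM with shCtrl and 32.1, 34.4 and 29.0 CPM with shUbc9. IAPLTR2_Mm had 66.0, 61.1 and 80.9 CPM against 56.3, 67.6 and 47.0 CPM, and IAPLTR2a had 28.03, 24.7 and 31.8 CPM against 25.3, 29.5 and 21.0 CPM. The groups overlapped in all 3. The other interiors at D4 had overlapping groups: IAP-d-int -0.21, IAPEy-int -0.25, IAPLTR3-int -0.04 and IAPLTR4_I -0.37 on the log2 scale, none called. None of the 5 listed ETn and MMERVK families was called, although MMETn-int, outside the list, rose by 0.43 (adjusted p = 0.00272), while 1 of 7 MERVL and MT2 families and 7 of 89 LINE-1 families were lower. For the gene and marker lists at D4, the background was 25.4% of all rows called higher and 25.2% lower. Among 17 H3K9 methylation genes 4 rose (Suv39h2 0.42, Tasor 0.28) and 3 fell (Resf1 -0.28, Morc2a -0.26). Of 10 DNA methylation genes 3 rose (Dnmt3l 1.21, Hells 0.48) and 5 fell (Dnmt3a -0.74, Tet1 -0.70). Histone deposition had 2 of 7 lower (Daxx -0.41, Asf1b -0.39), restriction genes 4 of 6 lower (Mov10 -1.0, Adar -0.59), and SUMO conjugation 4 of 6 higher (Sumo3 0.59, Uba2 0.36). Fibroblast markers summed to 34500 CPM in the controls and 21234 CPM in the depleted libraries (8 of 10 lower), macrophage markers to 129 and 212 CPM (9 of 10 higher), and pluripotent markers to 1.59 and 6.30 CPM (3 of 4 higher). Epithelial markers summed to 186 and 197 CPM (2 of 6 higher), endothelial markers to 170.1 and 199 CPM (1 higher and 1 lower of 4), and germ cell markers had no call among 3 tested. The part of these shifts in the IAP values was not tested.

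In MEF, no IAP family was called, where 2.95% of all rows were called higher and 1.58% lower. At an unadjusted p under 0.05 there was 1 family, IAPLTR4_I (-0.84; mean 0.356 CPM with shCtrl and 0.195 CPM with shUbc9; adjusted p = 0.256 by edgeR), and DESeq2 called 0. IAPEz-int had 194, 175 and 218 CPM in the controls and 193 and 182 CPM in the depleted libraries, so both depleted values lay within the control range. The 95% interval for its fold was 0.824 to 1.11. IAPEY3-int had 248, 239.9 and 276 CPM against 259 and 267 CPM, again within the range of the controls.

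The remaining MEF levels were low. IAP-d-int had 12.4, 10.5 and 12.9 CPM against 11.4 and 11.5 CPM. IAPEy-int had 5.30, 3.98 and 4.80 CPM against 4.23 and 3.34 CPM, and IAPLTR3-int 7.52, 7.77 and 7.94 CPM against 9.14 and 7.85 CPM. These groups overlapped. IAPLTR1_Mm had 19.1, 18.9 and 21.1 CPM against 18.0 and 18.1 CPM, separate but not called. Over the 16 families, 13 log2 fold changes were below 0, with a median of -0.11, beside -0.19 for all repeat families; 3 families had separate, lower groups, beside 15.7% of all rows. Without MEF shCtrl replicate 2, 2 families were called lower, IAPEY3_LTR (-0.38) and IAPLTR3 (-0.45). For the gene and marker lists in MEF, the background was 2.95% of all rows called higher and 1.58% lower. Of the machinery genes in MEF, Sumo3 (0.27) and Dnmt3l (1.70) were called higher, with 0 calls among the H3K9 methylation, histone deposition and restriction genes. No ETn and MMERVK, MERVL and MT2 or LINE-1 family was called. Fibroblast markers summed to 26425 and 25527 CPM (2 of 10 higher) and macrophage markers to 188 and 307 CPM (5 of 10 higher). The two-cell-like markers were at 0 in all MEF control libraries. Of the pluripotent, epithelial, endothelial and germ cell markers tested in MEF, 0 were called.

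In iPS cells, no IAP family was called, nor was any of the 17955 rows tested (0% of rows). No IAP family had an unadjusted p under 0.05, and DESeq2 called 0 of the 16 families and 9 rows in all. IAPEz-int had 579 and 299 CPM in the control libraries and 358, 214 and 472 CPM in the libraries labelled shUbc9. The control libraries differed from each other by more than the group means did, and the 95% interval for the fold ran from 0.383 to 1.67. The count of called families was 0 also without iPS shUbc9 replicate 2. The log2 fold change was -0.32 (SE 0.45) with all libraries, -0.10 without iPS shUbc9 replicate 2, 0.20 (SE 0.60) without iPS shCtrl replicate 1 and -0.73 without iPS shCtrl replicate 3.

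The spread in iPS cells was wide for the other interiors as well. IAPEY3-int had 90.8 and 44.2 CPM in the controls and 61.7, 13.0 and 56.8 CPM in the libraries labelled shUbc9. IAPEy-int had 39.7 and 10.8 CPM against 22.2, 45.2 and 56.3 CPM, and IAP-d-int 92.9 and 34.6 CPM against 70.2, 31.6 and 109 CPM. IAPLTR1_Mm had 37.5 and 27.4 CPM against 27.2, 19.0 and 30.3 CPM. All of these groups overlapped. Fibroblast markers summed to 438 and 1223 CPM in the control libraries and 744 to 1848 CPM in the libraries labelled shUbc9, against 46.7 to 59.8 CPM in the ES controls, and pluripotent markers to 3125 and 3813 CPM in the iPS controls. Their part in the iPS values was not tested. No gene of the marker, silencing or restriction lists, and no ETn, MERVL or LINE-1 family, was called in iPS cells.

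**Figure D3:**
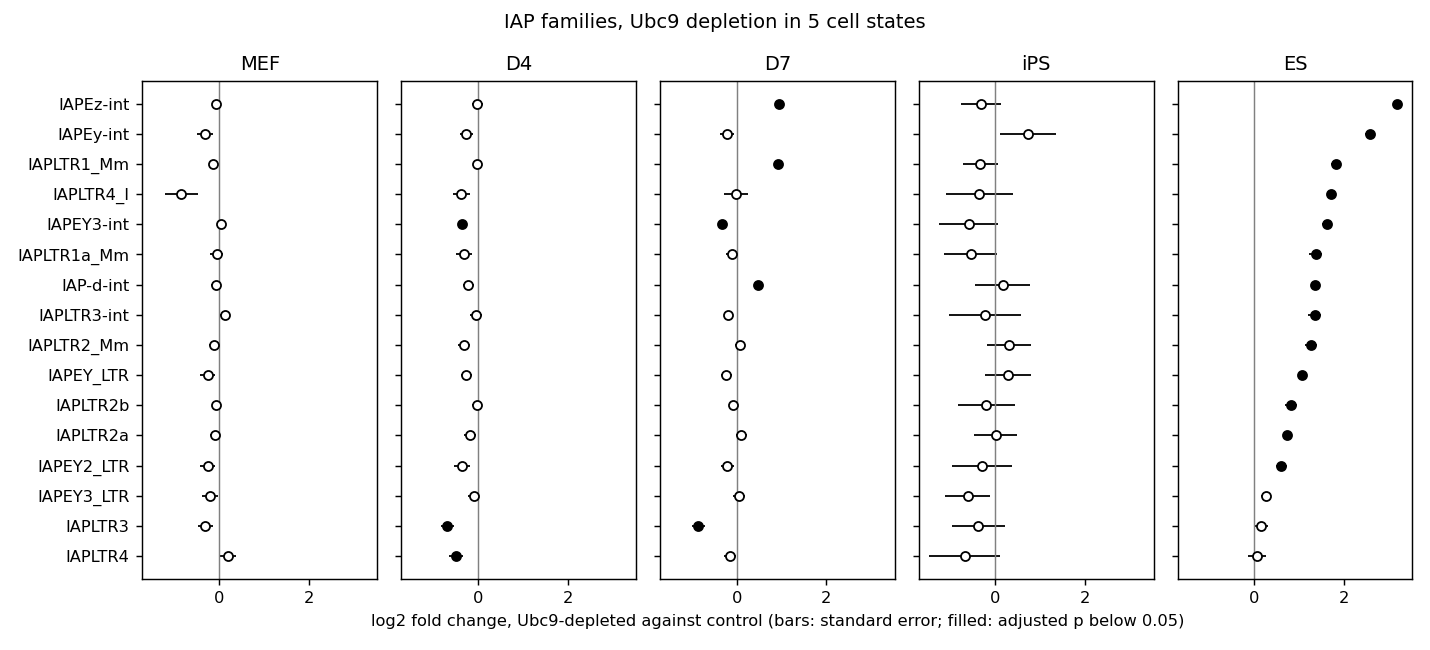
Log2 fold change of each of the 16 IAP families (y axis) on Ubc9 depletion in 5 cell states (panels); points are edgeR estimates, bars are standard errors, and filled points passed an adjusted p of 0.05. Calls number 0 in MEF, 3 at D4, 5 at D7, 0 in iPS cells and 13 in ES cells, where the points reach 3.19.

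Whether the response differed between states was tested with interaction terms in 1 fit of all 28 libraries. The ES response was larger than the D7 response in 9 families, beside 9.8% of all rows and 3.86% of repeat families called higher in that contrast. IAPEz-int differed by 2.17 (SE 0.31; adjusted p = 1.77e-05) and IAPEy-int by 2.72 (SE 0.45; adjusted p = 0.000106) on the log2 scale. Against MEF the ES response was larger in 6 families, beside 2.26% of all rows and 1.67% of repeat families, with IAPEz-int at 3.22 (SE 0.34; adjusted p = 1.95e-06). Leaving out 1 library brought that count to 3 in 7 of the 11 ways, namely without MEF shCtrl replicate 1 or 3, MEF shUbc9 replicate 1 or 3, ES siCtrl replicate 3, or ES siUbc9 replicate 2 or 3. Against the iPS response it was larger in 6 families, beside 3.76% of all rows and 3.34% of repeat families, with IAPEz-int at 3.49 (SE 0.33; adjusted p = 3.32e-07); this count was 7 without iPS shUbc9 replicate 2, 2 without iPS shCtrl replicate 1, 9 without iPS shCtrl replicate 3 and 10 without iPS shUbc9 replicate 3. These 3 contrasts share the ES libraries.

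Between the reprogramming days, 1 family responded more at D7 than at D4, IAPLTR1_Mm (0.97, SE 0.21; adjusted p = 0.0146), beside 1.2% of all rows and 0.129% of repeat families, which is that family alone. The call was lost without D4 shCtrl replicate 3, D4 shUbc9 replicate 3 or D7 shUbc9 replicate 2. For IAPEz-int the difference between the days was 0.99 (SE 0.31) and did not pass (adjusted p = 0.129), although the 2 days fell on opposite sides of the threshold when each was tested alone. The fit of all libraries takes a shared spread from every group, the iPS libraries included. In it the SE of the IAPEz-int response was 0.22 at D7 and 0.22 at D4. In the fits of those groups alone it was 0.10 at D7 and 0.12 at D4. Failing this test therefore does not show that the days responded alike. The D7 response was larger than that in iPS cells for IAPEz-int (iPS minus D7 -1.33, SE 0.33; adjusted p = 0.00723) and IAPLTR1_Mm (-1.30, SE 0.22; adjusted p = 0.000291), beside 7.45% of all rows and 1.03% of repeat families lower. For iPS cells the shared spread worked the other way. The SE of the IAPEz-int response there was 0.24 in the fit of all libraries and 0.45 in the fit of the iPS groups alone. The SE and adjusted p of IAPEz-int in contrasts with iPS cells, the ES contrast included, therefore understate the iPS spread. No family was called between D4 and MEF in the fit of all libraries, beside 3.04% of all rows, with 0 at an unadjusted p under 0.05 and 0 by DESeq2.

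The control libraries give the IAP level of each state without depletion. ES controls had a small interfering RNA and the other controls a hairpin. In comparisons with ES controls, cell state and agent therefore cannot be told apart. From MEF to D4, 15 of 16 families rose, beside 33.3% of all rows higher (34.9% lower) but 93.1% of repeat families higher, so the count was near that of repeats as a whole, and the IAP median of 1.20 stood beside 1.06. IAPEz-int rose 2.05-fold (1.04, SE 0.13), IAP-d-int 3.18-fold and IAPLTR4_I 5.49-fold, the last from 14 or 15 counts per MEF control library. IAPEY3-int did not pass (0.06; adjusted p = 0.436). With gene library sizes alone the median of all rows moved from -0.01 to 0.13 and the share of calls that were higher from 48.9% to 64.7%, and the number of IAP calls was 16.

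From D4 to D7 the only family called was IAPEY3-int, 1.47-fold lower (-0.55, SE 0.07; adjusted p = 0.00146), beside 7.51% of all rows and 1.56% of repeat families lower (8.64% and 0.39% higher). From D7 to iPS cells it was 2.84-fold lower again (adjusted p = 0.00218), beside 36.7% of all rows and 26.4% of repeat families lower, and IAPLTR4 was 2.09-fold higher (1.06), beside 35.2% of all rows and 7.54% of repeat families higher. The number of calls in this step was 10 without iPS shCtrl replicate 1 and 7 without iPS shCtrl replicate 3. Compared with ES controls, iPS controls were lower in 4 families, IAPLTR4_I (4.04-fold), IAPLTR3-int (3.07-fold), IAPLTR4 (2.24-fold) and IAPLTR3 (1.88-fold), beside 27.4% of all rows and 69.9% of repeat families lower (26.3% of all rows higher). That count was 14 without iPS shCtrl replicate 1, 2 without iPS shCtrl replicate 3 and 1 without ES siCtrl replicate 2.

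ES controls differed from MEF controls in all 16 families: 15 were higher and IAPEY3-int was lower, beside 49.2% and 41% of all rows and 92.6% and 4.17% of repeat families. The counts were thus near those of repeats as a whole. IAPLTR4_I was 15.7-fold higher in ES cells, IAPEy-int 9.02-fold, IAP-d-int 7.33-fold, IAPLTR4 6.80-fold and IAPEz-int 2.57-fold. Among 768 repeat families these ranked 12, 28, 36, 41 and 406 by log2 fold change, in that order. The MEF level of IAPLTR4_I rested on 14 or 15 counts per control library. IAPEY3-int was 2.29-fold lower (-1.19, SE 0.09; adjusted p = 1.84e-07), with 248, 239.9 and 276 CPM in MEF and 104, 126 and 107 CPM in ES cells. It was the family whose control level ran against the others, and its siUbc9 level in ES cells, 300.1 to 367 CPM, lay above that of every other library in the series.

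**Figure D4:**
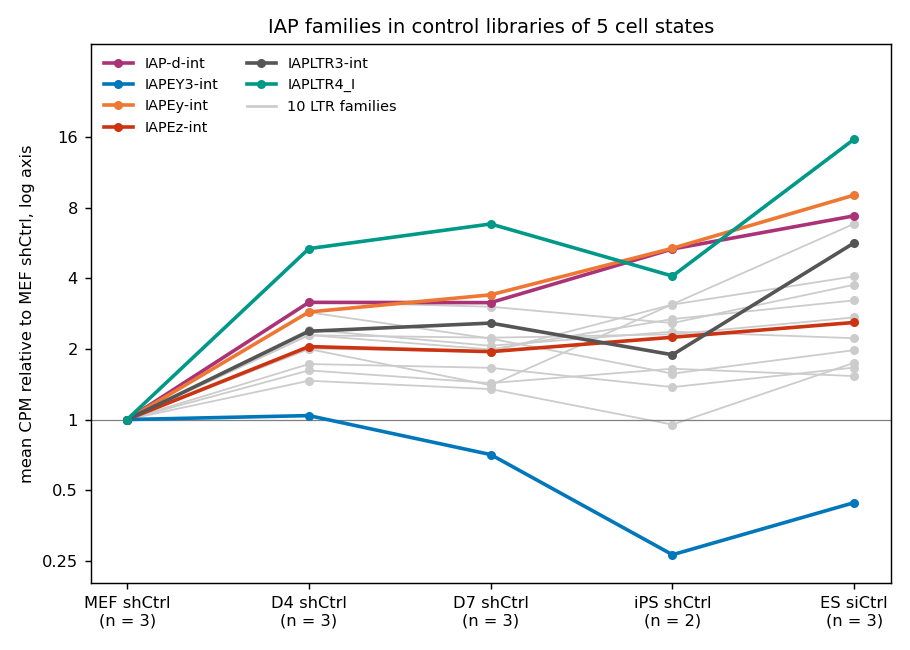
Mean CPM of each IAP family in the control libraries of 5 states (x axis), relative to its MEF shCtrl mean, on a log y axis; coloured lines are the 6 internal parts and grey lines the 10 LTR families, n = 3 libraries or 2 for iPS. IAPLTR4_I ends highest, at 15.7 times its MEF level by the fitted fold, and IAPEY3-int is the line that ends below 1. The MEF level of IAPLTR4_I rests on 14 or 15 counts per control library.

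In order of group means over all 10 groups, IAPEz-int was lowest in MEF (188 CPM with shUbc9, 196 CPM with shCtrl). It was followed by iPS shUbc9 (348 CPM), D7 shCtrl (381 CPM), D4 shCtrl (401 CPM), D4 shUbc9 (402 CPM), iPS shCtrl (439 CPM) and ES siCtrl (508 CPM). Above these stood D7 shUbc9 (758 CPM) and ES siUbc9 (4535 CPM), the groups whose libraries were all above those of the group just below them. Between the first 8 groups, neighbours overlapped. The sum of the 16 families had a mean of 591 CPM in MEF controls, 988 CPM at D4, 859 CPM at D7, 856 CPM in iPS cells and 1095 CPM in ES cells. With depletion the sum was 582, 893, 1245, 746 and 6035 CPM in the same order, and ES siUbc9 was the one group that did not overlap the group below it.

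Shares of counts do not depend on the gene scaling. IAP families took 0.505% of repeat counts in MEF controls, 0.471% at D4, 0.479% at D7, 0.446% in iPS cells and 0.374% in ES cells. In ES siUbc9 libraries the share was 2.03%, ranging from 1.92% to 2.14%, and at D7 with shUbc9 it was 0.761%, ranging from 0.725% to 0.796%. Repeats as a whole took 22.4% of all counts in ES siCtrl and 23.2% in ES siUbc9 libraries, so the IAP share changed while the repeat share stayed close.

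The makeup of the IAP counts differed as well. IAPEz-int held 33.1% of IAP counts in MEF controls, 40.4% at D4, 44.4% at D7, 51.2% in iPS cells and 46.5% in ES cells. It held 75.2% in ES siUbc9 libraries and 60.7% at D7 with shUbc9. IAPEY3-int held 43.1% in MEF controls and 10.3% in ES controls. LTR families held 26.7% of IAP counts in ES siCtrl and 9.34% in ES siUbc9 libraries, so most of the added counts in ES cells lay in internal parts. Family lengths and copy numbers were not used here, so a larger share does not mean a higher level per copy or per length.

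**Figure D5:**
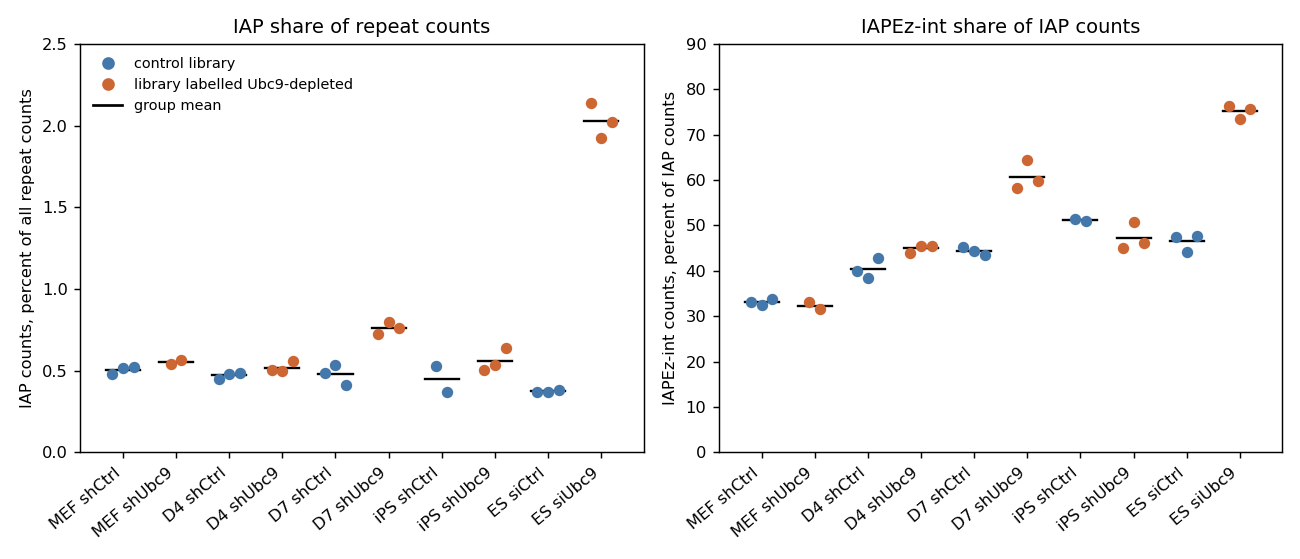
IAP counts as a percent of all repeat counts (left) and IAPEz-int counts as a percent of IAP counts (right), in each of 28 libraries by group; points are libraries and bars are group means, and both y axes start at 0. ES siUbc9 libraries are highest in both panels, at 1.92% to 2.14% and 73.6% to 76.4%.

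Over the 10 group means, the pattern of IAPEz-int was closest to that of IAPLTR1_Mm among IAP families (Pearson r = 0.975 on log2 CPM), then IAPLTR4_I (0.921) and IAPLTR3-int (0.907), and least like that of IAPLTR3 (0.547) and IAPEY3-int (0.203). Other close pairs were IAP-d-int with IAPLTR2a (0.989), IAPEy-int with IAPEY_LTR (0.988) and IAPLTR3-int with IAPLTR4_I (0.986). Outside IAP, the 5 repeat families most like IAPEz-int of 725 were RLTR44-int (0.958), RLTR44D (0.932), MuRRS-int (0.889), RLTR9C (0.885) and MMERVK10C-int (0.885). Of 13946 genes, Dnah7c (0.954), Gpr182 (0.944), Cfap70 (0.923), Rdh1 (0.923) and Nat8f2 (0.922) were the most alike. The means of these 5 genes were 4.32 to 47.1 CPM in ES siUbc9 and at most 1.89 CPM in any other group, near the floor. These correlations describe 10 points that share libraries and scaling, and the ES siUbc9 group is far from the other 9, so no test was made of them.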

How the data were processed

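Per the file headers, the authors deposited 1 table with a read count per gene or repeat family and library, without normalization. TruSeq stranded total RNA libraries were made with Ribo-Zero Gold, per the labels. Tools listed in the submitters' processing notes include featureCounts, DESeq2 and STAR 2.5.0a, and the build is mm9. The strand setting, the annotation and the treatment of multi-mapping reads were not given in the sources used here. Near-identical IAP copies can therefore share reads, families can be split uncertainly, and reads of a gene that holds an IAP copy may be counted in the family. All 28 columns were matched to labels, with 0 not used. Of the gene identifiers, 24191 matched a symbol and 2110 did not.

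Counts were tested in R 4.3.3 with edgeR 4.0.16 (quasi-likelihood test, two-sided; filterByExpr with a minimum count of 10; library sizes and TMM factors from genes; Benjamini-Hochberg adjustment over all rows; called at an adjusted p under 0.05) and limma 3.58.1. Only the groups compared entered a fit, except for interaction terms. Standard errors came from the F statistic. The alternatives were other scalings, no filter, repeats alone, a replicate block, DESeq2 1.42.0, each library left out and 1 fit of all libraries. The scripts were tested on simulated counts with the same spread in every row. The required rate of calls was not applied to the iPS comparison, so this test does not cover calls there. Replicate numbers were taken to pair the libraries where every same-numbered pair's correlation of deviations was over 0.1: ES depletion (0.31, 0.22, 0.10) and D4 against MEF controls (0.35, 0.62, 0.18). The ES replicate 3 value, 0.102, passed this cut narrowly, so the pairing in ES cells depends on where the cut was set. In both comparisons 5 of 6 libraries correlated best with their own number.

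Families given in full were the internal parts, the LTR families among the 8 highest mean levels, and in each depletion comparison the called members with the largest rise and fall; IAPLTR4 and others named were added after their values were seen. Likeness was ranked over families and genes whose mean reached 1 CPM, with 0.5 added before the log. Gene lists and members were chosen with earlier results of these data known. For each list the 2 called rises and 2 called falls of smallest p were named. Of the two-cell-like list, 6 of 7 genes were in the table. The ChIP-seq peak lists were not used here. The level of the targeted gene is not reported here.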

Additional observations from a re-analysis of the deposited data

Results flagged for a closer look

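These results passed a test of the difference in response between cell states, by interaction terms of edgeR's quasi-likelihood test on all 28 libraries, given as log2 differences. At D7 against D4, IAPLTR1_Mm differed by 0.97. In iPS cells against D7, IAPEz-int differed by -1.33 and IAPLTR1_Mm by -1.30. For IAPEz-int, the spread shared by all libraries was smaller than that of the iPS groups alone, here and in ES against iPS cells.

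In ES cells against iPS cells, the differences were 3.49 for IAPEz-int, 2.19 for IAPEY3-int, 2.12 for IAPLTR1_Mm, 1.90 for IAPLTR4_I, 1.86 for IAPLTR1a_Mm and 1.83 for IAPEy-int. Against MEF they were 3.22 for IAPEz-int, 2.86 for IAPEy-int, 2.51 for IAPLTR4_I, 1.92 for IAPLTR1_Mm, 1.35 for IAPLTR2_Mm and 1.27 for IAPEY_LTR. Against D7 they were 2.72 for IAPEy-int, 2.17 for IAPEz-int, 1.87 for IAPEY3-int, 1.65 for IAPLTR4_I, 1.46 for IAPLTR3-int, 1.40 for IAPLTR1a_Mm, 1.22 for IAPEY_LTR, 1.11 for IAPLTR2_Mm and 0.82 for IAPLTR1_Mm. The 3 sets share the ES libraries. The agent was a small interfering RNA in ES cells and a hairpin elsewhere, so cell state and agent cannot be told apart.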

How the results depend on the processing

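Under alternatives other than leaving out a library, 88 of 106 counts of IAP calls stayed within 1.5 times, and under leaving one out 102 of 124; the cause of the rest was not tested. With the replicate number as a block, counts were 3 for MEF depletion, 6 for D7 against D4 controls and 1 for the iPS response against D7; where numbers pair libraries the block gave 14 in ES cells and 15 for D4 against MEF controls, and no other call changed there. Elsewhere the numbers are only shared: in D4 and D7 depletion 0 of 6 libraries correlated best with their own number, and the block changed 1 call, that of IAPLTR4 at D4 (adjusted p = 0.064). With repeat families alone in the fit, counts were 0 at D4, 3 at D7, 0 for D7 against D4 controls, and for the response 0 at D7 against D4, 1 in iPS against D7, 3 in ES against MEF and 3 in ES against D7. In 1 fit of all libraries they were 0 at D4, 3 at D7, 0 for D7 against D4 controls and 4 for iPS against D7 controls. DESeq2 gave 2 for D7 against D4 controls and 2 for the response at D7 against D4. Gene library sizes alone gave 2 and 4 for D7 against D4 and iPS against D7 controls.

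Gene library sizes alone also moved the share of calls that are higher from 74.5% to 88.0% (response at D7 against D4), 48.2% to 25.3% (iPS against D7), 44.8% to 32.7% (ES against D7) and 53.5% to 38.7% (D7 against D4 controls). Leaving out 1 library gave counts of 0 to 2 in MEF, 2 to 8 at D4, 4 to 5 at D7, 0 to 0 in iPS and 13 to 14 in ES cells. For controls they were 15 to 15 (D4 against MEF), 1 to 2 (D7 against D4; 2 without D4 shCtrl replicate 2 or D7 shCtrl replicate 3), 2 to 10 (iPS against D7), 1 to 14 (iPS against ES) and 16 to 16 (ES against MEF). For responses they were 0 to 0 (D4 against MEF), 0 to 1 (D7 against D4), 2 to 3 (iPS against D7), 2 to 10 (ES against iPS), 3 to 6 (ES against MEF) and 7 to 10 (ES against D7). Where 1 library was left in a group, it was assumed to vary like the other group. No called value changed sign; uncalled ones did, such as IAPEz-int in iPS cells. Depth limited the rarest family, IAPLTR4_I, which had under 1 CPM in MEF.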
